A study of Mus musculus with 2 samples.

Results

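The genes described here move iron across membranes, store it, release it from haem or sense it: Slc40a1, Tfrc, Slc11a1, Slc11a2, Fth1, Ftl1, Hmox1 and Ireb2, which are 8 of the 31053 genes in the count matrices. They were selected by name, and all 8 had a row in both matrices. Slc40a1 entered the selection because it was among the genes that were lowest in adipocyte nuclei of the library labelled KO relative to the library labelled WT. Its ratio in adipocytes is thus what it was chosen on, and every adipocyte ratio below is given as a description.

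Male mice were kept on a Western diet for 4 weeks, and nuclei were isolated from their inguinal white adipose tissue (iWAT), which lies under the skin. RNA of single nuclei was captured in droplets and counted by unique molecular identifiers (UMIs), which mark each captured molecule. There was 1 library labelled Lexis WT and 1 labelled Lexis KO, each from the tissue of 3 mice pooled before nuclei were isolated. By the study's methods the lymph node had been taken out. Lexis is a long noncoding RNA. In the study's AdKO mice, floxed Lexis alleles are deleted by a Cre recombinase driven by adiponectin, an adipocyte gene. AdWT mice carry Lexis fl/fl without Cre. By this design the gene is left in place in cells other than adipocytes in both groups, whether or not they express it. No age was given for these mice in the sources used here, while most of the study's experiments took mice of about 10 to 12 weeks.

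The deposited files carry the opposite genotype in their names, and Lexis was not analysed here because no row of the matrices holds it, so the labels could not be checked against the deleted gene. The libraries are called by their labels throughout, and the direction of every difference depends on those labels: were they exchanged, each ratio would turn to its inverse. With 1 library for each genotype there were no replicates, no test was made, and the intervals below cover counting error only: a difference between the libraries cannot be told apart from a difference between preparations or between pools of mice. The libraries held 9376351 and 19655049 UMIs (labelled WT and KO), and 3503 and 2852 nuclei were kept, with median depths of 1195 and 3879 UMIs. Of the kept nuclei, 10 barcodes occurred in both libraries. Cell classes were defined by markers, and the iron genes were kept out of the genes used for clustering. There were 418 adipocyte nuclei in the library labelled WT and 896 in that labelled KO, 299 and 787 of the class of adipogenic stem and precursor cells (ASPC) and fibroblasts, 431 and 878 myeloid, 2100 and 74 lymphocyte, and 94 and 121 endothelial nuclei. Lymphocytes were thus 59.9% of the kept nuclei labelled WT and 2.59% of those labelled KO. An unnamed cluster of 151 nuclei labelled WT held 4491 CPM of 5 lymphoid stroma markers, against at most 872 CPM in the named classes of that library. Whether lymph node tissue was left in that pool, and its part in the lymphocyte and myeloid values below, was not tested. The 12 adipocyte markers summed to 15778.5 and 25359 CPM in adipocyte nuclei (labelled WT and KO), against at most 1181 and 3576 CPM in the other classes with at least 50 nuclei. For the 12 macrophage markers the sums were 4532 and 11030 CPM in myeloid nuclei, against at most 1165 and 578 CPM. At least 1 UMI of most of these markers was counted in classes that should lack them. The libraries filled most classes from different clusters. Adipocytes came from cluster 4 (labelled WT) and cluster 1 (labelled KO), ASPC and fibroblasts from cluster 8 and from clusters 5 and 6, and myeloid nuclei from clusters 7 and 12 and from clusters 3 and 9. The lymphocytes were mostly B and T cells in the library labelled WT (clusters 0, 2 and 13) and mostly cells of cluster 14, with the NK gene Ncr1 among its leading genes, in the library labelled KO, so their values are set side by side without a comparison. The lymphocyte class labelled KO also held 20468 CPM of 6 erythroid markers, above the 6360 CPM of its 12 T and NK cell markers, so its name is uncertain. In the other named classes with at least 50 nuclei the erythroid sum ran from 293 to 1606 CPM (labelled WT) and from 915 to 2245 CPM (labelled KO). Its part in the values of iron genes was not tested.

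Cells take up iron bound to transferrin through the transferrin receptor, which carries it into endosomes, where divalent metal transporters pass it to the cytosol. Iron that is not used is stored in ferritin, a shell of heavy and light chains, or leaves the cell through ferroportin, the only known iron exporter of mammals. Macrophages that engulf ageing red cells free iron from haem with haem oxygenase and return it to the blood through ferroportin. Much of this control acts on the messenger RNA after transcription. When iron is scarce, iron regulatory proteins bind a hairpin, the iron-responsive element, and block translation where the hairpin lies in the 5′ untranslated region (UTR) or protect the message from decay where hairpins lie in the 3′ UTR. Adipose tissue macrophages include cells that are rich in iron handling genes, and adipocyte iron is known to bear on adipokine release.

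These hairpins are the shared sequence feature by which the ferritin, ferroportin and transferrin receptor messages are known to answer to iron, and they are printed to show in which of the 8 genes a search for the perfectly paired form found one. The search took transcripts of the GENCODE M1 annotation (build NCBIM37), on the strand of the transcript, for a bulged C, a stem arm of 5 bases, the loop letters CAGTGN and an arm whose 5 bases all pair with the first, G with T allowed. Each sequence of 27 bases below runs 5′ to 3′ with the 6 loop bases in capitals.
Slc40a1: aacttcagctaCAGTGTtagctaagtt
Fth1: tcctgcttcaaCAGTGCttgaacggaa
Ftl1: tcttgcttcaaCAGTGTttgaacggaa
Tfrc, base 884: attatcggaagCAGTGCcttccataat
Tfrc, base 1263: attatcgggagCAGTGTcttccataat
Tfrc, base 1328: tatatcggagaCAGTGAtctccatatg
Tfrc, base 1375: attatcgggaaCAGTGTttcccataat
The Slc40a1 hairpin starts at base 103 of the 5′ UTR of Slc40a1-201 (chr1:45982311-45982337, minus strand). That of Fth1 starts at base 31 of the 5′ UTR of Fth1-201 (chr19:10057223-10057249, plus strand), and that of Ftl1 at base 79 of the 5′ UTR of Ftl1-001 (chr7:52715150-52715176, minus strand). The 4 Tfrc hairpins start at bases 884, 1263, 1328 and 1375 of the 3′ UTR of Tfrc-001, from chr16:32631306-32631332 to chr16:32631797-32631823 on the plus strand. No match was found in UTRs of Slc11a1, Slc11a2, Hmox1 or Ireb2, which says only that these letters are not in the UTRs searched. An isoform of Slc11a2 is known for an iron-responsive element in its 3′ UTR, and elements that depart from the perfectly paired form are missed by this search. Among all genes, 33 of 19945 with an annotated 5′ UTR (0.165%) and 125 of 20007 with a 3′ UTR (0.625%) held a match. A match is a description of the letters and not evidence of binding, and counts of RNA in nuclei do not measure translation.

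Slc40a1 (ENSMUSG00000025993, chromosome 1, 45908070 to 45926532 in GRCm38.p6) encodes ferroportin. Among classes with at least 50 nuclei of a library its level was highest in myeloid nuclei. In the library labelled WT these held 82 UMIs, or 92.7 CPM (73.7 to 115), where CPM is the count scaled to 1000000 UMIs of the class and the range is an exact Poisson 95% interval. In the library labelled KO they held 116 UMIs, or 40.9 CPM (33.8 to 49.1). In adipocyte nuclei it had 52 UMIs and 26.6 CPM (19.9 to 34.9) in the library labelled WT against 30 UMIs and 3.47 CPM (2.34 to 4.95) in that labelled KO. The intervals of the libraries did not overlap in either class. The ASPC and fibroblast class held 11 and 12 UMIs (14.7 and 3.61 CPM), and in endothelial nuclei 3 and 1. Lymphocytes, which are not known as a source of ferroportin, had 12 UMIs (4.68 CPM) under the label WT and none under the label KO, where a count of 0 allows up to 3 UMIs or 18.8 CPM. Within the library labelled WT the adipocyte interval thus lay above that of lymphocytes and overlapped that of the ASPC and fibroblast class (7.34 to 26.3).

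The adipocyte ratio of Slc40a1, labelled KO over labelled WT, was 0.130 (exact conditional binomial 95% interval 0.0802 to 0.208; inverse 7.68), and a lower one was found for 1.00% of the 11360 genes that had 50 counts or more in adipocyte nuclei. In total, 4 of the 8 iron genes had an adipocyte ratio of at most 0.5 (Slc40a1, Slc11a1, Hmox1 and Tfrc) and none a ratio of at least 2. Over all genes tested in adipocytes, 17.6% had a ratio of at most 0.5 and 25.9% a ratio of at least 2. Since the selection used this contrast, nothing is read from that count. Relative to their UMIs, adipocyte nuclei of the library labelled WT also held more macrophage RNA. By number of nuclei the order was the other way, as 176 of 418 labelled WT and 162 of 896 labelled KO had no macrophage marker UMI. All 12 macrophage markers were counted in the adipocytes of both libraries, and they summed to 497 CPM (labelled WT) and 349.7 CPM (labelled KO), against 4532 and 11030 CPM in myeloid nuclei. As a share of the myeloid sum this is 10.97% and 3.17%. At those shares of its myeloid level, Slc40a1 would stand at 10.2 and 1.30 CPM in adipocytes, below the measured 26.6 and 3.47 CPM and outside their intervals. The same shares put Slc11a1, a macrophage gene, at 18.4 and 4.76 CPM, beside measured values of 21.0 (15.1 to 28.5) and 3.00 (1.96 to 4.40) CPM. For Slc11a1 the value at that share lay within the measured interval in the library labelled WT and above it in that labelled KO. Such shares do not serve alike in every class. In lymphocytes labelled WT they put Slc40a1 at 11.6 CPM, above the measured 4.68 CPM (2.42 to 8.18). There Slc11a1 would stand at 20.9 CPM, above the measured 12.1 CPM (8.22 to 17.2). Among the 176 and 162 adipocyte nuclei with no UMI of a macrophage marker, Slc40a1 had 11 and 4 UMIs, a log2 ratio of −2.03 in place of −2.94 and too few counts for the threshold of 50. Hmox1 had 15 and 8 UMIs there (log2 ratio −1.47 in place of −2.12), and Slc11a1 had 3 and 1. The part that macrophage RNA has in the adipocyte values was not tested.

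Nuclei of the libraries differed in depth, so shares of nuclei with a UMI were also taken after each nucleus was thinned to 1000 UMIs. At this depth Slc40a1 was detected in 5.56% of 342 myeloid nuclei of the library labelled WT (Clopper-Pearson 95% interval 3.38% to 8.54%) and in 2.55% of 823 of that labelled KO (1.59% to 3.87%). It was detected in 1.72% of 408 adipocyte nuclei labelled WT (0.693% to 3.503%) and in 0.562% of 890 labelled KO (0.183% to 1.31%). The intervals of the libraries overlapped in both classes at this depth. Lymphocytes of the library labelled WT gave 0.278% of 1078 (0.0574% to 0.811%), and those of the library labelled KO gave 0 of 63, so that the share may be as high as 4.76%. In the library labelled WT the intervals of adipocytes and lymphocytes overlapped, and in that labelled KO the lymphocytes were too few, and their name too uncertain, to set a background for the adipocyte share. Without thinning, 8.13% of adipocyte nuclei labelled WT and 2.90% of those labelled KO had a Slc40a1 UMI, at median depths of 3651.5 and 7848.5 UMIs. The deeper adipocytes thus had the smaller share.

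Slc40a1 was unevenly spread among myeloid nuclei. A single nucleus of the library labelled KO held 27 of its 116 UMIs, and the 3 richest nuclei held 54. Of the 82 UMIs in the library labelled WT, 1 nucleus held 18 and the 3 richest held 32. The myeloid ratio was 0.441 (0.330 to 0.593), or a log2 ratio of −1.18, which became −1.37 without those 3 nuclei in each library. The difference was smaller under stricter filters. Among nuclei with at least 1000 detected genes the counts were 25 and 111 and the log2 ratio was −0.16. Among nuclei with at most 1% mitochondrial UMIs the log2 ratio was −0.44. The myeloid difference of Slc40a1 thus depended on which nuclei were kept.

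**Figure D1:**
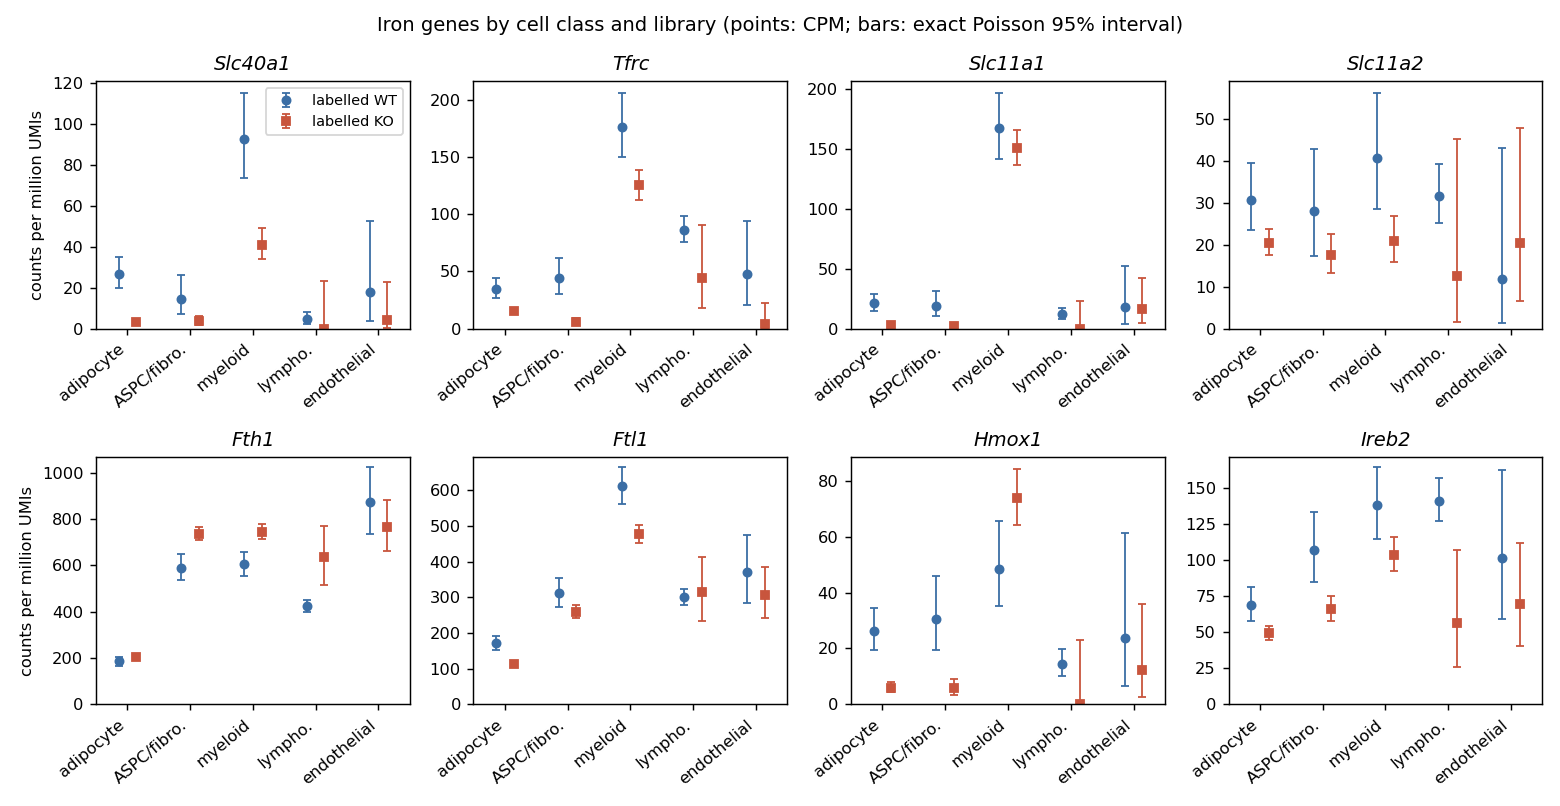
Level of each iron gene (y axis, CPM) in 5 cell classes of the library labelled WT (circles) and the library labelled KO (squares), with exact Poisson 95% intervals. Slc40a1, Slc11a1 and Hmox1 stand highest in myeloid nuclei of either library, and in adipocytes they lie lower in the library labelled KO.

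Among the genes of uptake, Tfrc (ENSMUSG00000022797, chromosome 16, 32608896 to 32632794), the transferrin receptor, was highest in myeloid nuclei, where it had 156 and 355 UMIs (labelled WT and KO), or 176 CPM (149.7 to 206) and 125 CPM (113 to 139). In adipocytes it had 68 and 135 UMIs, or 34.8 CPM (27.0 to 44.1) and 15.6 CPM (13.1 to 18.5). ASPC and fibroblast nuclei held 33 and 20 UMIs, or 44.1 CPM (30.4 to 61.9) and 6.02 CPM (3.68 to 9.30). The intervals of the libraries did not overlap in these 3 classes. Lymphocytes had 86.6 CPM in the library labelled WT, above adipocytes, ASPC and fibroblasts of that library, and 44.0 CPM from 7 UMIs in the library labelled KO. Cluster 13, a lymphocyte cluster of the library labelled WT with the cell division genes Top2a and Mki67 among its leading genes, had a Tfrc level of 141 CPM (91.5 to 209; 25 UMIs), an interval that overlapped that of cluster 0 (98.7 CPM, 82.6 to 117) and lay above that of cluster 2 (61.7 CPM).

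The Tfrc ratio was lowest in the ASPC and fibroblast class, at 0.137 (0.0743 to 0.245), and 0.356% of the 9268 genes tested there had a lower one. It was 0.448 (0.332 to 0.609) in adipocytes and 0.710 (0.587 to 0.863) in myeloid nuclei. At 1000 UMIs per nucleus the shares of nuclei with a Tfrc UMI did not separate the libraries. They were 2.21% (1.01% to 4.15%) and 2.13% (1.29% to 3.31%) in adipocytes (labelled WT and KO), 13.7% (10.3% to 17.9%) and 10.6% (8.55% to 12.9%) in myeloid nuclei, and 3.07% (1.33% to 5.95%) and 0.785% (0.289% to 1.70%) in the ASPC and fibroblast class, with intervals that overlapped in each class. At 500 UMIs the intervals of the ASPC and fibroblast class did not overlap, at 2.34% (0.946% to 4.76%) labelled WT and 0.254% (0.0308% to 0.915%) labelled KO. Those of adipocytes and of myeloid nuclei overlapped at 500 UMIs too. Tfrc was the only 1 of the 5 iron genes with enough counts in the ASPC and fibroblast class whose ratio was at most 0.5, where 8.76% of all genes were, and none had a ratio of at least 2, where 25.1% were. Macrophage markers in that class summed to 792 and 404 CPM, and at the share of its myeloid level that this gives, Tfrc would stand at 30.8 and 4.59 CPM, within the measured intervals. Whether macrophage RNA accounts for it was not tested. In 12 and 16 UMIs from adipocyte nuclei without a macrophage marker, the log2 ratio of Tfrc was −0.15, in place of −1.16 over all adipocytes.

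Slc11a1 (ENSMUSG00000026177, chromosome 1, 74375014 to 74386057), also known as Nramp1, moves iron and manganese out of the phagosome of macrophages. It stood at 167 CPM (141 to 197; 148 UMIs) in myeloid nuclei labelled WT and at 150.3 CPM (136 to 165; 426 UMIs) in those labelled KO, and these intervals overlapped. The myeloid ratio was 0.898 (0.743 to 1.09). No other class with at least 50 nuclei in a library had more than 21.0 CPM, and both myeloid intervals lay above those of all these classes. Its adipocyte ratio, from 41 and 26 UMIs, was 0.143 (0.0840 to 0.240).

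Slc11a2 (ENSMUSG00000023030, chromosome 15, 100387898 to 100424209), the divalent metal transporter DMT1 of the endosome, overlaps the noncoding gene Gm5475, and reads of the pair may not be told apart. In the library labelled WT it ran, over named classes with at least 50 nuclei, from 11.95 CPM (2 UMIs) in endothelial to 40.7 CPM in myeloid nuclei, and in adipocytes it had 30.7 CPM from 60 UMIs. The adipocyte, myeloid and ASPC levels of the library labelled KO were 20.5, 20.8 and 17.5 CPM, with intervals that overlapped. Its highest level there was in 52 myocyte nuclei, at 45.4 CPM (23.4 to 79.2; 12 UMIs), an interval above that of the ASPC and fibroblast class (13.3 to 22.6). Its ratios were 0.666 (0.494 to 0.908) in adipocytes, 0.622 (0.372 to 1.08) in the ASPC and fibroblast class and 0.511 (0.332 to 0.797) in myeloid nuclei. Slc11a2 passed 0.5 in none of the 3 classes on this scale.

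Fth1 (ENSMUSG00000024661, chromosome 19, 9980600 to 9985111) encodes the ferritin heavy chain, which oxidises iron as it enters the shell. Its adipocyte level was 186 CPM (167 to 206; 363 UMIs) for the label WT and 203 CPM (194 to 213; 1761 UMIs) for the label KO, a ratio of 1.09 (0.977 to 1.23), which did not differ from 1 beyond counting error. Myeloid nuclei had 605 and 745 CPM (ratio 1.23, 1.12 to 1.36), the ASPC and fibroblast class 591 and 737 CPM (ratio 1.25, 1.13 to 1.38) and endothelial nuclei 872 and 766 CPM (ratio 0.878, 0.703 to 1.10). Adipocytes thus had the lowest Fth1 of these classes in both libraries. Among ASPC and fibroblast nuclei labelled WT, 1 nucleus held 71 of the 442 UMIs and 3 held 124. Without the 3 richest nuclei of each library the log2 ratio there was 0.65 in place of 0.32.

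Ftl1 (ENSMUSG00000050708, chromosome 7, 45457944 to 45459886) encodes the ferritin light chain, which aids the formation of the iron core. Its near-identical copy Ftl1-ps1 has a row of its own with 2 to 15 UMIs in adipocyte, ASPC and fibroblast, and myeloid nuclei, so reads of the copies may have been split and the level of Ftl1 is uncertain to that extent. It was highest in myeloid nuclei, with 613 CPM (562 to 666; 542 UMIs) under the label WT and 478 CPM (453 to 504; 1355 UMIs) under the label KO. Adipocytes had 171 and 113 CPM, the ASPC and fibroblast class 311 and 259.6 CPM and endothelial nuclei 371 and 307 CPM. The ratios were 0.660 (0.582 to 0.7497) in adipocytes, 0.834 (0.721 to 0.968) in the ASPC and fibroblast class and 0.780 (0.706 to 0.864) in myeloid nuclei. With Fth1 ratios above 1 in the ASPC and fibroblast and the myeloid class, the ferritin chains stood on opposite sides of 1 there, by less than 1.5 times each. At 1000 UMIs per nucleus the shares with a Ftl1 UMI did not separate the libraries. They were 14.2% and 12.1% in adipocytes (labelled WT and KO), 21.8% and 24.1% in the ASPC and fibroblast class and 34.8% and 32.3% in myeloid nuclei. The intervals overlapped in each of these classes at 1000 and at 500 UMIs.

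Hmox1 (ENSMUSG00000005413, chromosome 8, 75093618 to 75100593), the inducible haem oxygenase that opens haem and frees its iron, was the only member whose ratio lay above 1 beyond counting error in 1 class and below 1 in another. In myeloid nuclei it had 43 UMIs and 48.6 CPM (35.2 to 65.5) in the library labelled WT and 209 UMIs and 73.7 CPM (64.1 to 84.4) in that labelled KO, a ratio of 1.52 (1.09 to 2.16). At matched depth this difference was not seen, as 4.09% (2.26% to 6.77%) and 4.496% (3.18% to 6.14%) of myeloid nuclei had a Hmox1 UMI at 1000 UMIs (labelled WT and KO), and 3.71% and 2.62% at 500 UMIs. In adipocytes it had 51 UMIs and 26.1 CPM (19.4 to 34.3) against 52 UMIs and 6.01 CPM (4.49 to 7.88), a ratio of 0.230 (0.153 to 0.345), and at 1000 UMIs 2.70% (1.35% to 4.77%) and 0.449% (0.123% to 1.15%) of nuclei had a UMI. The ASPC and fibroblast class had 23 and 19 UMIs (30.7 and 5.72 CPM), too few for a ratio. In the library labelled WT, lymphocytes had 14.4 CPM, and after thinning 1.39% of its lymphocyte nuclei had a Hmox1 UMI, with an interval that overlapped that of its adipocytes. At the macrophage marker shares given above, Hmox1 would stand at 5.33 and 2.34 CPM in adipocytes. The Hmox1 adipocyte values were above those in both libraries. Hmox1 also stood above the level given by marker shares in the ASPC and fibroblast class (8.50 and 2.70 CPM) and in lymphocytes labelled WT (6.08 CPM). Lymphocytes labelled KO held no Hmox1 UMI.

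Ireb2 (ENSMUSG00000032293, chromosome 9, 54862658 to 54912534) encodes iron regulatory protein 2, a sensor that binds the hairpins when iron is low. Adipocytes labelled WT had 68.6 CPM (134 UMIs) and those labelled KO 49.3 CPM (427 UMIs). Myeloid nuclei had 138 and 104 CPM, and the ASPC and fibroblast class 107 and 66.0 CPM. Its ratios lay close together, at 0.719 (0.591 to 0.880), 0.752 (0.607 to 0.937) and 0.617 (0.476 to 0.807) in these classes. Adipocytes had the lowest Ireb2 level of the 3 classes in both libraries.

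In myeloid nuclei, 1 of the 8 iron genes (Slc40a1) had a ratio of at most 0.5, where 12.2% of the 8973 genes tested were, and none had a ratio of at least 2, where 24.6% were. A share of 1 in 8 is near that background and is not a result about the iron genes. The median log2 ratio of the members was −0.88 in adipocytes (8 genes), −0.68 in the ASPC and fibroblast class (5 genes) and −0.38 in myeloid nuclei (8 genes), beside −0.01, 0.14 and 0.11 over all genes tested. The adipocyte median includes Slc40a1, which was chosen on this contrast, so nothing is read from it. Scaling by TMM factors moved the log2 ratios by 0.29 in adipocytes and by 0.10 and 0.11 in the other classes. It took Tfrc above 0.5 in adipocytes (log2 ratio −0.87).

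Ratios also moved with gene structure. In adipocytes the median log2 ratio ran from −0.82 over 181 genes with no intron to 1.44 over 1424 genes with more than 100000 intronic bases, and the other classes had the same order of size, with −0.71 to 1.58 and −0.89 to 1.52. The ferritin genes are short, with 1524 (Fth1) and 601 (Ftl1) intronic bases, and Ireb2 is the longest member, with 42972. Relative to genes of like intronic length, the log2 ratio of Fth1 in adipocytes, ASPC and fibroblasts, and myeloid nuclei was 1.02, 0.88 and 0.92, and that of Ftl1 turned to 0.33, 0.38 and 0.38. That of Ireb2 was −0.87, −1.17 and −0.93, and that of Slc11a2 was −0.98, −1.15 and −1.49, past −1 in the last 2 classes. That of Slc11a1 in myeloid nuclei turned to 0.29 and that of Hmox1 there was 1.04. The log2 ratios of Slc40a1 (−2.77), Slc11a1 (−2.22) and Hmox1 (−1.53) in adipocytes and of Tfrc (−2.81) in the ASPC and fibroblast class kept their direction and stayed past −1. That of Slc40a1 in myeloid nuclei was −1.10, and that of Tfrc in adipocytes moved from −1.16 to −0.99 and no longer passed. The direction of Ftl1 therefore depends on whether intronic length is taken into account, and the sources used here do not say whether intronic reads were counted. Relative to genes of like intronic length, the median log2 ratio of the members was −0.98 in adipocytes and −1.15 in the ASPC and fibroblast class. In myeloid nuclei it was −0.06, in place of −0.38.

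**Figure D2:**
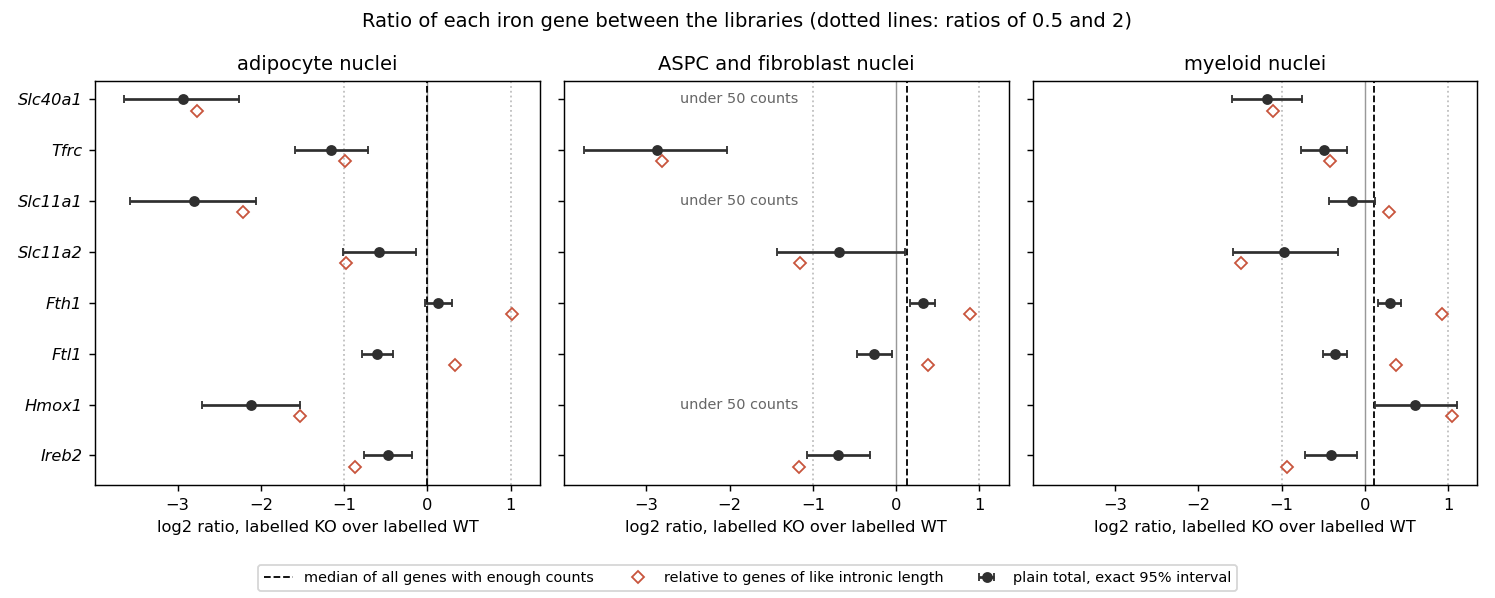
Log2 ratio of each iron gene, library labelled KO over library labelled WT, in 3 cell classes (circles with exact conditional binomial 95% intervals), with the median of all genes tested (dashed line) and the value relative to genes of like intronic length (open diamonds). Slc40a1, Slc11a1 and Hmox1 lie left of −1 in adipocytes on both scales, while Ftl1 moves from the left to the right of the median, and Fth1 further to its right, when intronic length is taken into account.

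Ferritin transcripts also moved with the mitochondrial share of a nucleus, which may reflect cytoplasmic RNA that stays with it, though this was not tested. In adipocytes of the library labelled KO, Fth1 had 132 CPM in nuclei with at most 0.5% mitochondrial UMIs, 232 CPM from 0.5% to 1%, 311 CPM from 1% to 2% and 410.4 CPM from 2% to 5%. In adipocytes of the library labelled WT the same steps had 145, 209, 261 and 206 CPM. The intervals of the libraries overlapped in the first 3 steps and not in the last (150.03 to 275 against 360.4 to 465 CPM). In myeloid nuclei labelled KO, Fth1 had 328, 418, 718 and 991 CPM, and in those labelled WT 843, 517, 513 and 619 CPM. Fth1 thus stood lower in the library labelled KO at up to 0.5% and higher above 1%, but the first step held 22 nuclei labelled KO with 42 UMIs, and 3 of the 64 nuclei labelled WT held 44 of 111 UMIs. The myeloid steps of Ftl1 were 141, 278, 424 and 668 CPM in the library labelled KO and 646, 553, 551 and 671 CPM in that labelled WT, so that the intervals overlapped in the last 2 steps. Median mitochondrial shares of the myeloid nuclei were 2.00% (labelled KO) and 1.40% (labelled WT). With at most 1% mitochondrial UMIs, the log2 ratio was −0.71 for Fth1 and −1.22 for Ftl1 in myeloid nuclei, −0.41 and −0.53 in the ASPC and fibroblast class, and 0.01 and −0.66 in adipocytes. In the ASPC and fibroblast class this rested on few nuclei, since 1 nucleus labelled WT held 71 of the 147 Fth1 UMIs at up to 1%. Without the 3 richest nuclei of each library the Fth1 levels there were 292 and 343 CPM (log2 ratio 0.23), and the log2 ratio of Ftl1 was −0.02. Its Fth1 steps were 298, 464, 693 and 985 CPM (labelled KO) and 830, 317, 629 and 575 CPM (labelled WT). In myeloid nuclei the log2 ratio without the richest nuclei stayed below 0, at −0.46 for Fth1 and −1.02 for Ftl1. The higher Fth1 of myeloid nuclei labelled KO was thus not there in those with least mitochondrial RNA.

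**Figure D3:**
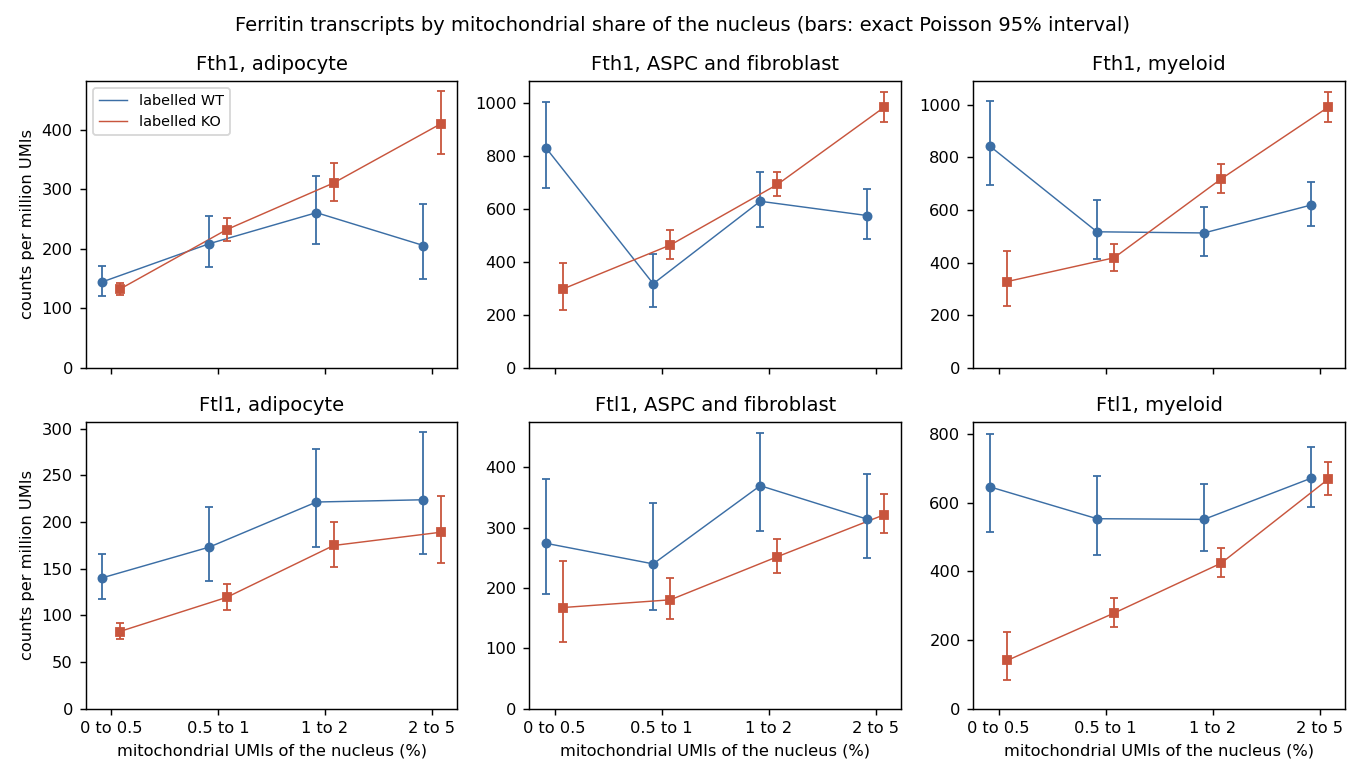
Level of Fth1 (top) and Ftl1 (bottom) in CPM (y axis) against the mitochondrial share of the nucleus in 4 steps (x axis, percent of UMIs), in 3 cell classes of the library labelled WT (circles) and the library labelled KO (squares), with exact Poisson 95% intervals. In the library labelled KO both genes stand higher at each further step, and in the library labelled WT myeloid nuclei and ASPC and fibroblasts show no such order.

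The myeloid class held 4 clusters with at least 50 nuclei of a library. These were cluster 7 (311 nuclei labelled WT, with Timd4, a receptor of resident macrophages, among its leading genes), cluster 3 (543 nuclei labelled KO, with Vsig4 and Ms4a4a), cluster 9 (305 nuclei labelled KO, with Dcstamp and St18) and cluster 12 (98 nuclei labelled WT, with Ccl22, a chemokine of dendritic cells). Each was mostly of 1 library, so that cluster and library cannot be told apart. Slc40a1 had 127 CPM (100.3 to 159) in cluster 7, 63.5 CPM (52.4 to 76.3) in cluster 3, 20.4 CPM in cluster 12 and 2.02 CPM (0.245 to 7.29; 2 UMIs) in cluster 9. The ferroportin transcript was thus near 0 in cluster 9, whose interval overlapped that of cluster 12 only. Clusters 3 and 9 of the library labelled KO had like depths, with medians of 2897 and 2894 UMIs. Tfrc had the same order, with 221, 173, 89.7 and 42.4 CPM. Slc11a1 had another, with 216 CPM in cluster 7, 188 CPM in cluster 9, 129 CPM in cluster 3 and 40.7 CPM in cluster 12. Hmox1 had 58.6, 79.7, 24.5 and 60.6 CPM in clusters 7, 3, 12 and 9, where the intervals of clusters 7, 3 and 9 overlapped. Fth1 had 722, 668, 309.7 and 737 CPM, and Ftl1 752, 383, 281 and 543 CPM, so both ferritin chains were lowest in cluster 12.

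Without clusters 9 and 12 the myeloid log2 ratio of Slc40a1 was −1.03, that of Slc11a1 moved from −0.15 to −0.71, that of Ftl1 from −0.36 to −0.77 and that of Fth1 from 0.30 to 0.06. The Slc11a1 difference in myeloid nuclei thus rested on which clusters were taken. Cluster 7 also had 21 nuclei labelled KO. These, with a median of 916 UMIs and 3.68% mitochondrial UMIs, had 6322 CPM of Fth1 and 4406 CPM of Ftl1, and 3 nuclei held 129 of 165 and 83 of 115 UMIs.

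Other genes of iron recycling differed between the macrophage clusters. Cd163, the scavenger receptor for haemoglobin bound to haptoglobin, had 328 CPM in cluster 7 and 2032 CPM in cluster 3. Spic, a transcription factor of iron-recycling macrophages, had 129 and 12.3 CPM. In cluster 7, the 26 nuclei with a Slc40a1 UMI had 670.03 CPM of Tfrc and 171 CPM of Hmox1, and the 285 without had 167 and 45.1 CPM. Slc11a1 (156 and 223 CPM) and Spic (109 and 131 CPM) had the opposite order there, with intervals that overlapped. In cluster 3, the 40 nuclei with a Slc40a1 UMI had 181 CPM of Tfrc and 150.2 CPM of Hmox1, and the 503 without had 172.5 and 72.8 CPM. The 3 richest nuclei held 28 of the 43 Tfrc UMIs in the first set and 23 of the 24 Hmox1 UMIs in the second, so both rest on few nuclei.

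**Figure D4:**
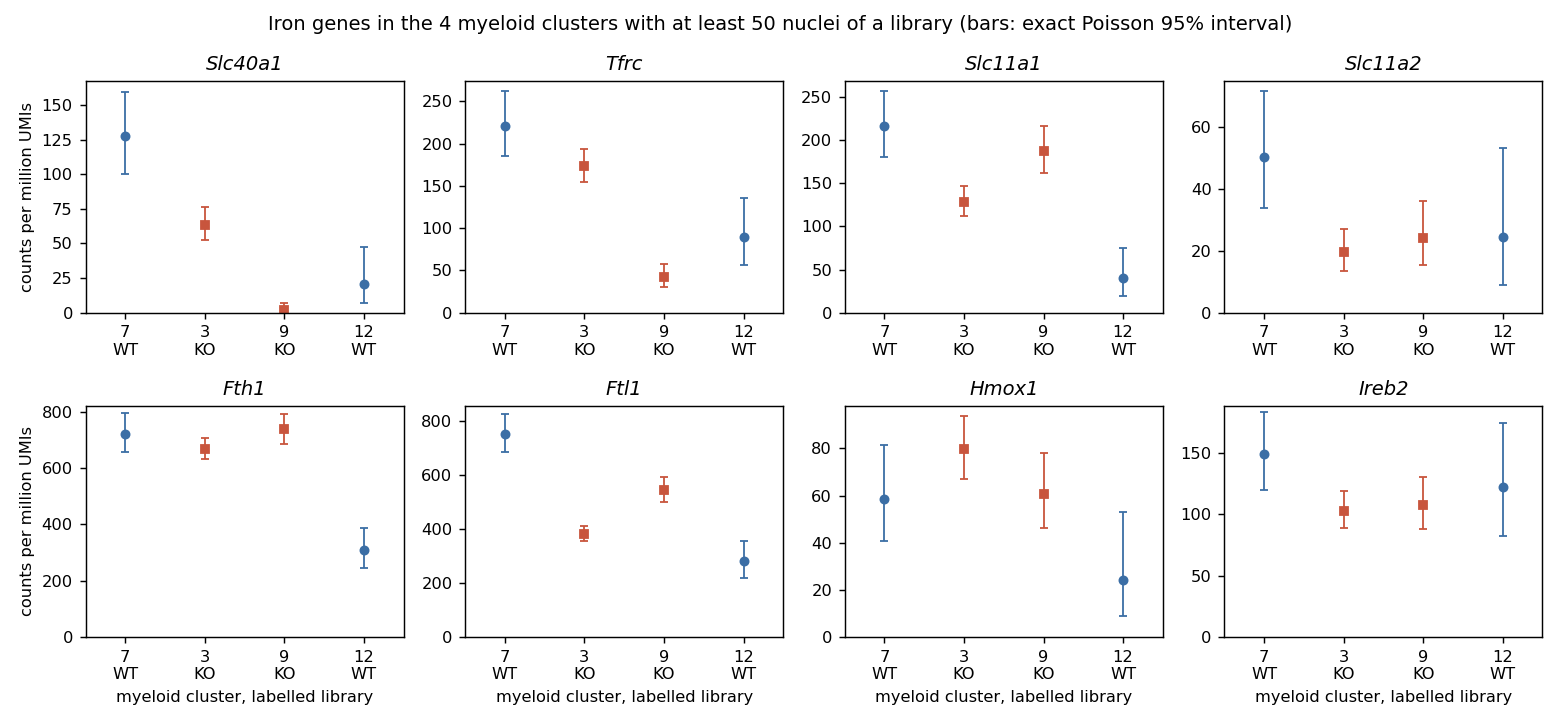
Level of each iron gene (y axis, CPM) in the 4 myeloid clusters with at least 50 nuclei of a library (x axis, cluster number and label of the library; circles labelled WT, squares labelled KO), with exact Poisson 95% intervals. Slc40a1 and Tfrc step down from cluster 7 to cluster 3 and are lowest in cluster 9, while Slc11a1 is high in cluster 9.

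Over the 12 combinations of class and library with at least 50 nuclei, the genes most like each member were taken by Pearson correlation of log2(CPM + 1) among 12611 genes, as a description. These combinations share 2 libraries and their depths. Slc40a1 was most like Clec10a, a lectin of macrophages (r = 0.95), Hmox1 (0.94) and F630028O10Rik (0.93), and Hmox1 was most like Clec10a (0.95), Slc40a1 (0.94) and Csf2ra (0.93). Tfrc was most like Arrb2 (0.96), Cybb (0.95) and Matk (0.95), and Slc11a1 most like Ms4a8a (0.94), F630028O10Rik (0.94) and Dnajb14 (0.94). Fth1 was most like Calm3 (0.92), Cstb (0.91) and Ifitm2 (0.91), Ftl1 most like Sec61g (0.95), Furin (0.94) and Lipa (0.93), Ireb2 most like Ccdc9 (0.96), Slc26a2 (0.96) and Exoc1 (0.96), and Slc11a2 most like Ubxn2a (0.90), Srpk3 (0.86) and Mkrn2 (0.86). Among pairs of members, r ran from −0.47 (Slc11a2 and Fth1) to 0.94 (Slc40a1 and Hmox1), and the ferritin chains had 0.80.

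A wider list of 46 iron genes, of which 45 had a row, gives the rest of the pathway. In adipocytes 30 had enough counts, 6 with a ratio of at least 2 and 4 with at most 0.5, and their median log2 ratio was 0.18. In the ASPC and fibroblast class 5 and 2 of 29 passed those ratios (median 0.13), and in myeloid nuclei 7 and 2 of 29 (median 0.15). Over all genes tested, the shares at these ratios were 25.9% and 17.6% in adipocytes, 25.1% and 8.76% in the ASPC and fibroblast class, and 24.6% and 12.2% in myeloid nuclei, so that the counts of the list lay near or below them. In adipocytes, large ratios were those of Hmox2, the constitutive haem oxygenase (11.8 and 59.2 CPM, ratio 5.02, 3.31 to 7.997), Hp, haptoglobin (385 and 1259 CPM, ratio 3.27, 3.04 to 3.52), and Steap4, a metalloreductase (42.5 and 129 CPM, ratio 3.03, 2.42 to 3.83). Hmox2 and Hmox1 thus lay on opposite sides in adipocytes. The smallest were those of Pcbp1, a chaperone that loads ferritin (0.351, 0.270 to 0.458), the mitochondrial iron carriers Slc25a28 (0.464, 0.373 to 0.579) and Slc25a37 (0.493, 0.393 to 0.620), and the zinc and iron transporter Slc39a14 (0.465, 0.301 to 0.734). In the ASPC and fibroblast class, Bmp6, a ligand that raises hepcidin in liver, had 1 and 318 UMIs (ratio 71.7, 12.8 to 2839.7), ahead of Hp (4.56) and Flvcr1, a haem exporter (2.93), and Slc25a28 and Slc25a37 had 0.465 and 0.486. The Bmp6 difference was not particular to that class. Endothelial nuclei had 8 and 169 Bmp6 UMIs (ratio 14.5, 7.18 to 34.1). Adipocytes had 3 and 46 and myeloid nuclei 0 and 12, too few for a ratio. In myeloid nuclei, large ratios were those of Cd163 (5.43), Abcg2, an efflux pump that can carry porphyrins (4.64), and Hmox2 (4.18), and the smallest were Spic (0.0955, from 85 and 26 UMIs) and Pcbp1 (0.410). Relative to genes of like intronic length, the log2 ratio of Hmox2 in adipocytes was 1.94, that of Hp 2.59 and that of Bmp6 in the ASPC and fibroblast class 4.59 in place of 6.16. Others fell short of a ratio of 2 or 0.5 on that scale. Abcg2 in myeloid nuclei moved from 2.21 to 0.70, Pcbp1 from −1.51 to −0.69 in adipocytes and from −1.28 to −0.39 in myeloid nuclei, and Slc25a28 from −1.11 to −0.52 in adipocytes and from −1.10 to −0.70 in the ASPC and fibroblast class.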

How the data were processed

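The deposited files hold UMI counts per gene and barcode for 5000 barcodes in each library, which the authors made with Cell Ranger (6.1.1 per the file headers). The submitters' processing notes name mm10 and Seurat 4. Whether intronic reads were counted or free RNA was removed is not given in the sources used here. Barcodes with at least 500 genes and at most 5% mitochondrial UMIs were kept (3649 labelled WT, 2944 labelled KO). Scrublet in scanpy 1.11.5 marked 92 doublets in the library labelled KO, which were removed. It marked 0 in the library labelled WT, where the top 4% of scores (146) were removed instead. Merged nuclei were clustered with Seurat 5.3.0 (2000 variable genes less 10 iron genes, 20 components, 20 neighbours, resolution 0.5, no integration). A cluster took a class name from at least 3 markers, each in at least 5% of nuclei and at 2 times the mean of the other clusters, with a lead of 3 over the next class. The marker lists were fixed, and this scoring rule was set later. A cluster of 151 nuclei labelled WT stayed unnamed. Counts were summed per class and library and scaled to CPM. Genes needed 50 counts over both libraries for a ratio. The count of 0 allows 3 counts. Intervals are exact at 95%, and PCR and preparation error are not in them.

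Gene structure came from GENCODE M1 (NCBIM37), matched for 93.7% of the genes tested in adipocytes, 96.5% in ASPC and fibroblasts and 96.4% in myeloid nuclei. Positions of genes are from RefSeq on GRCm38.p6. All 8 members were named in each class where they had 50 counts. Of the wider list, up to 4 genes per class and direction past a ratio of 2 were named by size, except 1 gene that is not reported here, and for each member the 3 genes most like it. The ratio was tested on simulated counts first. Alternatives were edgeR 4.0.16 TMM scaling, totals without mitochondrial genes and Malat1, other filters, resolution 0.2, doublets left in, iron genes among the variable genes, classes from each nucleus's own markers, and intronic length. Limits of 1% mitochondrial UMIs, leaving out clusters 9 and 12, leaving out the 3 richest nuclei, and the first and last of these together for ferritin were chosen after seeing the data. The members and lists were chosen with earlier results of these data known.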

Additional observations from a re-analysis of the deposited data

Results flagged for a closer look

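Hmox1 had a ratio, labelled KO over labelled WT, of 1.52 in myeloid nuclei and of 0.230 in adipocyte nuclei, with intervals on opposite sides of 1. It stands here because the libraries differed in opposite directions in the classes, and this difference was not tested. At matched depth the share of myeloid nuclei with a Hmox1 UMI did not separate the libraries, at 4.09% and 4.496% (labelled WT and KO) at 1000 UMIs and 3.71% and 2.62% at 500 UMIs.

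Barcodes left out by the filters also held ferritin transcripts. In the 2056 left-out barcodes of the library labelled KO, Fth1 had 1719 CPM (1673 to 1767) and Ftl1 had 1109 CPM (1072 to 1147), above the interval of every class with at least 50 nuclei in that library. In the 1351 left-out barcodes of the library labelled WT they had 648 and 578 CPM. The median mitochondrial share of the left-out barcodes was 10.9% (labelled KO) and 7.60% (labelled WT). Slc40a1 had 3.30 and 13.8 CPM there, within the range of the kept classes.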

How the results depend on the processing

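No paired analysis was possible because each genotype has 1 library. The Slc40a1 log2 ratio in adipocytes lay between −3.19 and −2.03 over its alternatives, with the smallest difference, −2.03, in adipocytes without macrophage marker UMIs. In those nuclei 3 members had enough counts and 0 had a ratio of at most 0.5, in place of 4 of 8. Slc40a1, Hmox1 and Slc11a1 fell under 50 counts there with log2 ratios still past −1, and Tfrc did not pass −1. Correction for intronic length gave 1 iron gene with a ratio of at least 2 in adipocytes and 1 in myeloid nuclei, in place of 0, and 3 with at most 0.5 in the ASPC and fibroblast class in place of 1, and 2 in myeloid nuclei. In the ASPC and fibroblast class that last count was 2 with doublet calls left in, and 0 with classes from each nucleus's own markers or with at most 1% mitochondrial UMIs, where Tfrc fell under 50 counts. Its log2 ratio there lay between −3.38 and −1.97 over its alternatives. In myeloid nuclei it was 2 without mitochondrial genes and Malat1 in the total, with iron genes among the variable genes, with classes from own markers and without clusters 9 and 12, and 1 member had a ratio of at least 2 at up to 1% mitochondrial UMIs. Among all genes, those at most 0.5 in adipocytes numbered 1109 under TMM scaling and 7769 with no filter on low counts. In the ASPC and fibroblast class they numbered 1524 without mitochondrial genes and Malat1, 1384 from 20 counts up and 6306 with no filter, and in myeloid nuclei 1788, 1762 and 6069. Under TMM scaling the wider list had 10 genes at 2 or more and 1 at most 0.5 in adipocytes and 1 at most 0.5 in the ASPC and fibroblast class. The myeloid level of Slc40a1 in the library labelled WT was 49.3 CPM from 1000 genes up and 141 CPM with classes from own markers, where that of the library labelled KO was 49.8 CPM. Its share of nuclei was 3.02% and 1.48% at 500 UMIs, and 4.78% in the library labelled KO without thinning. The causes of these shifts were not tested.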
